A study of Rattus norvegicus with 24 samples.

Results

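The genes described here are the Wnt ligands of the rat and the receptors, coreceptors, secreted inhibitors, R-spondins and intracellular proteins that carry or restrain their signal. The rule takes gene symbols alone: 67 of the 36856 genes in the count tables carry a symbol of these families. RNA was sequenced from 24 rat libraries, 4 rats in each of 6 groups. Sprague-Dawley rats, female per the labels and weighing 120 to 200 g, were fed synthetic food for 7 days. Kidney papilla (inner medulla, the tip of the kidney rich in collecting ducts) came from rats on food with a Na content of 0.4%, called high salt here after the sample titles, and from rats on 0.01 to 0.02% Na, called low salt. A piece of heart ventricle was taken on the same 2 diets, and the labels do not say whether kidney and heart came from the same rats. In a separate kidney experiment on 0.4% Na, an osmotic minipump delivered the adrenal hormone aldosterone at 12 µg per day, against controls on the same food for which the labels name no pump. In every group replicates 1 and 2 belong to the labels' batch 1 and replicates 3 and 4 to batch 2.

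Wnt proteins are secreted lipid-modified signals that bind a Frizzled receptor together with the coreceptor LRP5 or LRP6. In the canonical branch this stops the APC, Axin and GSK3 complex from marking beta-catenin for destruction, so that beta-catenin reaches TCF and LEF factors in the nucleus, while other branches act on cell polarity and calcium. In the kidney Wnt9b, Wnt4 and Wnt7b are known for building tubules and the medulla during development, and in the heart the pathway is known for roles in development and in the response of fibroblasts to injury.

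The promoters of Fzd1 and Frat1 are shown because their fitted low-salt changes had opposite signs in kidney and heart, a difference that passed its own test. Fzd1 encodes a Frizzled receptor and Frat1 a protein that binds GSK3 and holds it away from Axin. Both windows come from RefSeq on the GRCr8 build and run from 250 bases before to 50 bases after the annotated start, 300 bases in all, on the + strand: chr4:30264824-30265123 for Fzd1 and chr1:250587391-250587690 for Frat1. The capitals mark CG pairs, the sites that DNA methylation uses.
Fzd1: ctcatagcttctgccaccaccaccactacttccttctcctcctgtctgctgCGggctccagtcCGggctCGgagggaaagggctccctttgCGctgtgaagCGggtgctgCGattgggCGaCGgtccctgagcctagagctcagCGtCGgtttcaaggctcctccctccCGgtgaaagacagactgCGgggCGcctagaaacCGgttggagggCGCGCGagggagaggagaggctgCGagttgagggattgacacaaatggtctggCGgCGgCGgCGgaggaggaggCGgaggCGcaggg
Frat1: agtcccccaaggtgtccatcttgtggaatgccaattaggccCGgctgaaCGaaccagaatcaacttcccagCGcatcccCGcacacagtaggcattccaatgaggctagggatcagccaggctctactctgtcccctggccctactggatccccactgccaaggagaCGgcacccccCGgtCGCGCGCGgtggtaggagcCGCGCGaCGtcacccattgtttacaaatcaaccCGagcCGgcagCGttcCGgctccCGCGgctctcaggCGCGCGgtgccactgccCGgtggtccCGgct
The Fzd1 window held 24 CG pairs and 65.3% G or C, and the Frat1 window 25 CG pairs and 64.3%. Of the 67 genes, 49 had an entry in the promoter table, with a median of 25 CG pairs and 65.3% G or C, against 7 and 51.7% over all 33469 promoters. On either strand, the letters CTTTGA, the core that TCF and LEF factors bind, were found in 5 of the 49 windows (10.2%) and in 16.1% of all promoters. The letters AGAACA, a half-site of the corticosteroid receptors, were found in 3 of the 49 (6.12%) and in 20.7% of all. Neither motif contains the other, and neither was in the windows of Fzd1, Frat1, Wif1 or Tcf7l1. Lrp5, the other gene called for diet or for a difference between diet responses, had no entry in the promoter table.

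The deposited tables held 24299000 to 38319000 counts per library. Levels are normalised CPM, counts scaled to a common library size, and compare 1 gene between libraries, not different genes, since gene lengths were not used. Principal cell markers summed to 7785 to 11626 CPM in the low-salt experiment's kidneys and to at most 33.3 CPM in the hearts, and cardiomyocyte markers to 29055 to 43328 CPM in the hearts and to at most 4.07 CPM in the kidneys. The batch 1 hearts held RNA of kidney marker genes, and its source was not tested. Proximal tubule markers summed to 13.8 and 31.0 CPM in high-salt replicates 1 and 2. They summed to 13.4 and 53.8 CPM in low-salt replicates 1 and 2, against at most 0.399 CPM in batch 2. Thick ascending limb markers reached 83.8 CPM in high-salt replicate 2 against at most 6.09 CPM in the other hearts. Principal cell markers reached 33.3 CPM in that same library against at most 2.40 CPM in the other hearts. Although the labels call all rats female, Xist, expressed from the inactive X chromosome, was found at 239 to 454 CPM in the aldosterone experiment (8 libraries). The low-salt experiment (16 libraries) held at most 0.0913 CPM of it and 144 to 275 CPM of 4 Y-linked genes. Within each experiment the treated and untreated rats shared the same pattern.

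Of the 67 genes, 45 passed the filter on low counts in all 3 treatment comparisons, 7 in 2 of them and 4 in 1. The remaining 11, among them the ligands Wnt1, Wnt3, Wnt3a, Wnt10b and Wnt16 and the R-spondin receptor Lgr5, passed in none, and no group mean of these exceeded 0.305 CPM.

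Low salt was associated in the inner medulla with more RNA of the coreceptor Lrp5 and the nuclear factor Tcf7l1, and with less of the secreted inhibitor Wif1. These were 3 of 52 tested genes of the pathway (5.77%), against 2.46% of all 18449 genes tested (454 genes, 201 higher and 253 lower). The unadjusted p was under 0.05 for 16 of the 52, a larger share than the 19.6% of all genes, though the shares were not tested against each other. The 52 fold changes were balanced, with 28 positive, 24 negative and a median log2 fold change of 0.03, against -0.0035 over all genes. In bulk tissue, a change in the number of cells of a type and a change in RNA per cell cannot be told apart.

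Lrp5 stood at 202, 195, 211 and 241 CPM in high-salt replicates 1 to 4 and at 319, 284, 292 and 318 CPM in low-salt replicates 1 to 4. Every low-salt kidney lay above every high-salt kidney. The low-salt mean of 303 ± 18.1 CPM was 1.43-fold the high-salt mean of 212 ± 20.4 CPM (SD, n = 4 each), a log2 fold change of 0.52 ± 0.08 (SE; edgeR adjusted p = 0.0226). Its close relative Lrp6 did not pass, with 77.2, 86.3, 92.0 and 90.6 CPM on high salt and 102, 109, 101 and 102 CPM on low salt (log2 fold change 0.26 ± 0.07, adjusted p = 0.0784), although its groups did not overlap either. The other coreceptors, Ror1, Ror2 and Ryk, had log2 fold changes from -0.06 to 0.34 and none passed.

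Wif1, a secreted protein that binds Wnt ligands and keeps them from their receptors, fell on low salt. Its levels were 3.94, 4.75, 5.30 and 3.49 CPM in the high-salt kidneys against 1.43, 1.79, 2.27 and 1.70 CPM in the low-salt kidneys, again with no overlap. Low-salt kidneys averaged 1.80 ± 0.351 CPM and high-salt kidneys 4.37 ± 0.808 CPM. The log2 fold change, -1.29 ± 0.21 (adjusted p = 0.0315), was the lowest of the 52 genes. Another secreted inhibitor, Sfrp4, was near the filter, averaging 0.404 CPM in low-salt and 0.872 CPM in high-salt kidneys (adjusted p = 0.154). Dkk1, Dkk2, Dkk3, Sfrp1 and Sfrp2 did not pass, with log2 fold changes from -0.17 to 0.45.

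Tcf7l1, a TCF factor that mostly holds target genes silent, rose on low salt. It stood at 25.9, 27.1, 23.1 and 26.6 CPM on high salt and 36.3, 38.9, 30.7 and 30.1 CPM on low salt, without overlap, and its log2 fold change was 0.40 ± 0.08 (adjusted p = 0.0474). Tcf7l2 also had separate groups, 32.4, 26.5, 32.1 and 34.7 CPM against 50.3, 42.0, 41.0 and 39.4 CPM on low salt, but missed the threshold (log2 fold change 0.46 ± 0.11, adjusted p = 0.0713). Tcf7 had the largest positive estimate of the 52 genes, 1.25 ± 0.37, with wide spread: 10.8, 6.90, 6.78 and 21.3 CPM on high salt and 19.0, 33.9, 23.6 and 29.5 CPM on low salt, where only high-salt replicate 4 reached into the low-salt range (adjusted p = 0.115). Lef1 was at 1.32 and 1.34 CPM.

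Among 11 tested ligands none passed. The nearest was Wnt7b, made by the collecting duct, with 435, 429, 635 and 560.0 CPM on high salt and 311, 321, 531 and 426 CPM on low salt, a log2 fold change of -0.39 ± 0.09 (adjusted p = 0.0601). Its groups overlapped because both were higher in batch 2, and within batches each low-salt kidney was below each high-salt kidney, with log2 differences of -0.45 in batch 1 and -0.33 in batch 2. Wnt5a, a ligand of the polarity branch, showed 114 CPM on low salt against 155 CPM (adjusted p = 0.0748), and Wnt4 189 against 136 CPM (adjusted p = 0.137). None of 9 tested Frizzled receptors passed. Fzd4, which also serves the vessel signal norrin, was at 183 ± 27.7 CPM in low-salt and 147 ± 17.5 CPM in high-salt kidneys (adjusted p = 0.213). Fzd1 had overlapping levels of 172, 187, 125 and 139 CPM on high salt and 219, 178, 191 and 171 CPM on low salt (log2 fold change 0.30 ± 0.10, adjusted p = 0.144).

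No cytoplasmic gene passed in the kidney. Frat1 came nearest, at 5.12, 6.66, 8.38 and 5.52 CPM on high salt and 3.54, 3.95, 3.70 and 4.96 CPM on low salt, all low-salt values below all high-salt values (log2 fold change -0.67 ± 0.19, adjusted p = 0.105). Ctnnb1, which encodes beta-catenin itself, averaged 509.7 ± 14.3 CPM in low-salt and 470.0 ± 20.7 CPM in high-salt kidneys (adjusted p = 0.353). Axin2, a feedback target of the canonical branch, was at 24.2 ± 2.47 and 27 ± 4.84 CPM (adjusted p = 0.397). Of the R-spondin module, which controls how many Frizzled receptors stay on the cell surface, 0 of 5 tested genes passed, with log2 fold changes from -0.14 for Rspo3, one of the secreted R-spondins, to 0.29 for Rnf43 (adjusted p = 0.101). Lgr4, an R-spondin receptor, was at 152 ± 8.58 CPM in low-salt and 150.3 ± 19.3 CPM in high-salt kidneys. In all, 7 of the 52 genes (13.5%) had groups that did not overlap, against 11.4% of all genes tested, a share near the background.

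The 3 kidney calls held their direction in both batches, with log2 differences of 0.60 in batch 1 and 0.43 in batch 2 for Lrp5, -1.43 in batch 1 and -1.12 in batch 2 for Wif1 and 0.51 in batch 1 and 0.29 in batch 2 for Tcf7l1. Their adjusted p passed 0.05 when single rats were left out: for Lrp5 without high-salt replicate 1, 2 or 3 or low-salt replicate 3 or 4 (up to 0.0829), for Wif1 without these or low-salt replicate 2 (up to 0.0939), and for Tcf7l1 without any rat but high-salt replicate 4 (up to 0.133). The Tcf7l1 call was also lost without the batch term (0.0919) and without a filter on low counts (0.0625). With the replicate number as a block all 3 calls were lost (0.0553 for Lrp5, 0.0557 for Wif1 and 0.0990 for Tcf7l1). Among the markers of the medulla's cells, the urea transporter gene Slc14a2 of the inner medullary collecting duct fell on low salt, from 1892 ± 387 to 1074 ± 153 CPM without overlap (log2 fold change -0.81 ± 0.12, adjusted p = 0.0207), and none of the other marker genes tested passed. Hbb, a red cell gene, had an estimate of 1.26 ± 0.57 (adjusted p = 0.268), and erythroid genes summed to 282 to 3206 CPM on high salt and 1688 to 3847 CPM on low salt. Principal cell genes summed to 9865 to 11412 CPM on high salt and 7785 to 11626 CPM on low salt, fibroblast genes to 85.9 to 143 and 105 to 126 CPM, smooth muscle genes to 14.8 to 23.0 and 9.70 to 15.7 CPM, and urothelial genes to 80.5 to 501 and 97.7 to 264 CPM. Genes within a list differed in sign, so a sum need not follow each of its genes. Among principal cell genes Aqp2 had a log2 fold change of -0.29 and Scnn1g 0.54 (edgeR adjusted p = 0.276 and 0.0662). Among smooth muscle genes Myh11 had -0.95 and Acta2 0.24 (adjusted p = 0.0872 and 0.629). The part of these cell types in the 3 results was not tested.

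**Figure D1:**
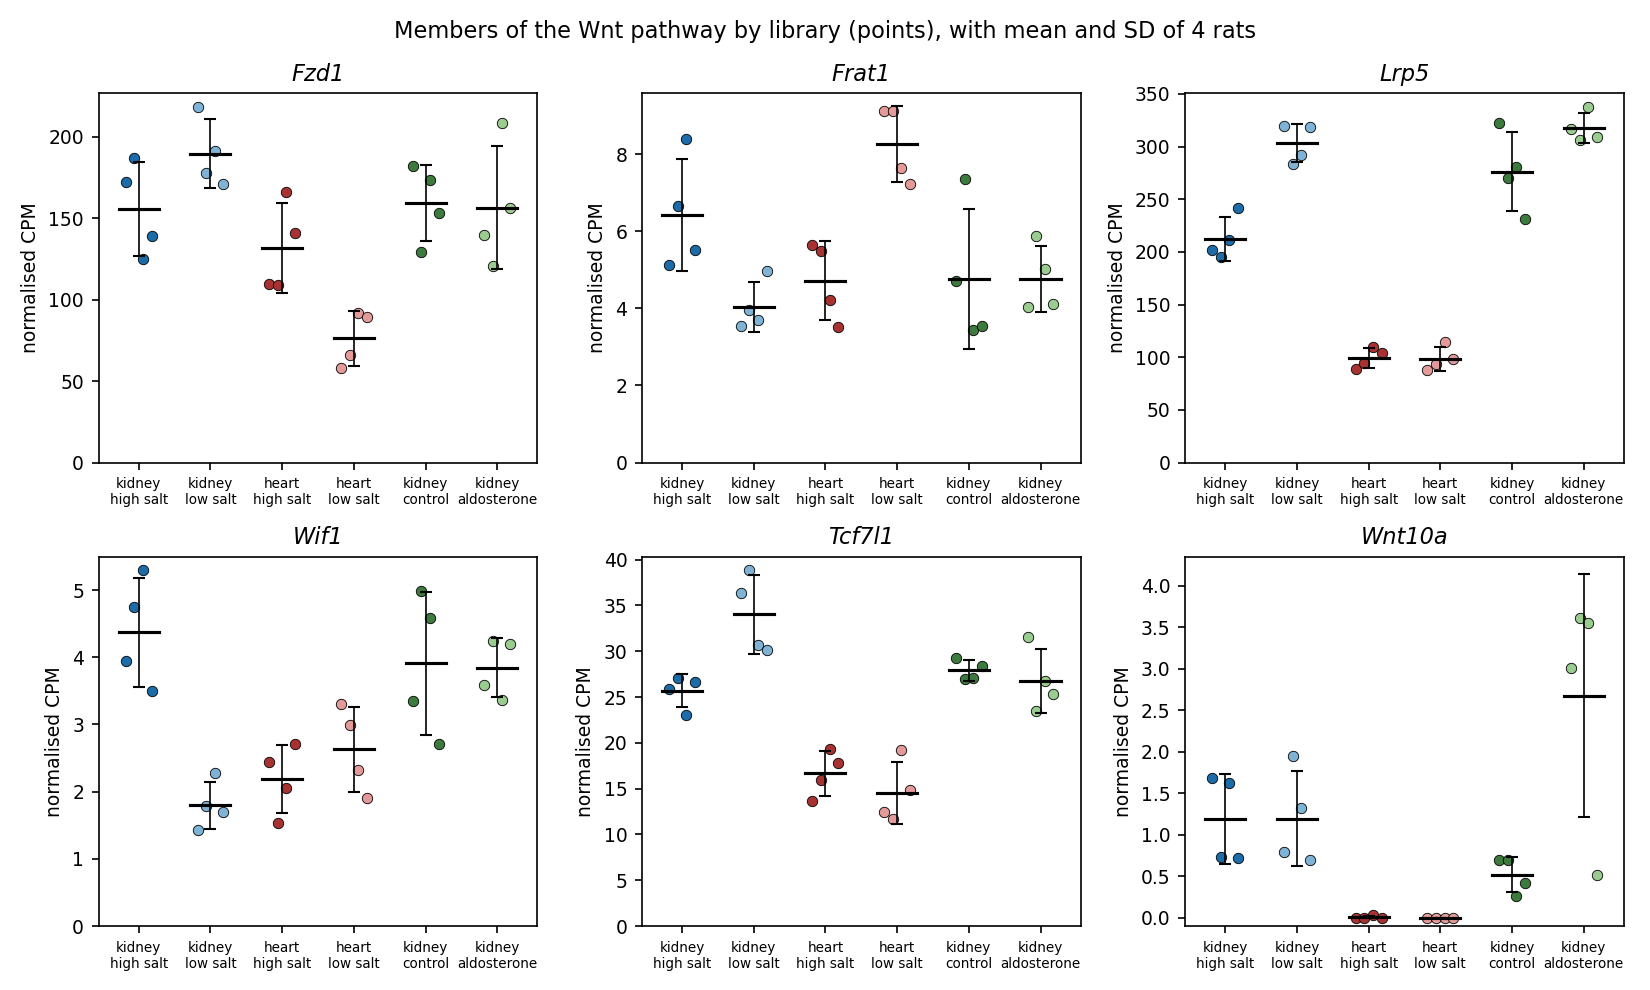
Normalised CPM of 6 genes in each library (points), with the mean and SD of 4 rats (bars), for the 6 groups on the horizontal axis; each count table was scaled on its own, so levels compare only within the pairs of one table. Lrp5, Wif1, Tcf7l1 and Frat1 separate the kidney diet groups, as do 11.4% of all genes tested there. Fzd1 and Frat1 separate the heart diet groups, as do 4.72% of all genes tested there. Wnt10a is high in 3 of 4 aldosterone kidneys.

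In the heart ventricle, Fzd1 fell on low salt and was the only 1 of 49 tested genes of the pathway to pass (2.04%), against 8 of 15473 genes in all (0.0517%, 2 higher and 6 lower). Fzd1 stood at 109.8, 109, 166 and 141 CPM in high-salt hearts and at 58.2, 65.9, 91.6 and 89.5 CPM in low-salt hearts. All low-salt hearts lay below all high-salt hearts. The means of 76.3 ± 16.8 CPM on the low-salt and 132 ± 27.6 CPM on the high-salt diet gave a fitted 1.73-fold difference (log2 fold change -0.79 ± 0.07, adjusted p = 0.0118), and the log2 difference was -0.82 in batch 1 and -0.76 in batch 2. Among the other Frizzled receptors Fzd9, at 0.664 and 1.04 CPM on low and high salt, also had groups that did not overlap (log2 fold change -0.64 ± 0.24, adjusted p = 0.402).

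The Fzd1 call was lost without heart high-salt replicate 1 or 2 or low-salt replicate 1, 3 or 4 (adjusted p up to 0.0949), without the batch term (0.414) and with the replicate number as a block (0.128), while its log2 fold change stayed between -0.84 and -0.74. Fibroblast markers summed in batch 1 to 705 and 612 CPM on high salt and 433 and 372 CPM on low salt, and in batch 2 to 720 and 743 CPM on high salt and 757 and 701 CPM on low salt. Smooth muscle markers ranged over 37.2 to 68.3 CPM on high salt and 33.2 to 43.7 CPM on low salt, and erythroid markers over 1763 to 26082 and 13773 to 43802 CPM. Their part in the Fzd1 result was not tested.

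Frat1 and its relative Frat2 were the cytoplasmic genes with the smallest p in the heart. Frat1 stood at 5.63, 5.49, 4.22 and 3.53 CPM on high salt and 9.10, 9.12, 7.64 and 7.22 CPM on low salt, and Frat2 at 5.93, 5.78, 5.55 and 3.10 and 6.80, 7.93, 8.09 and 8.20 CPM. In both genes every low-salt heart was above every high-salt heart. Neither passed the main test, with a log2 fold change of 0.82 ± 0.11 for Frat1 (adjusted p = 0.0813) and 0.62 ± 0.20 for Frat2 (adjusted p = 0.337). Frat1 passed by DESeq2 (1.11e-05) and without a filter on low counts (0.0147). The other 8 cytoplasmic genes had log2 fold changes between -0.09 and 0.20.

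The remaining roles showed no call in the heart. Dkk3, a secreted protein of the Dickkopf family, was at 141, 154, 239.5 and 230.4 CPM on high salt and 212, 217, 258 and 252 CPM on low salt (log2 fold change 0.33 ± 0.09, adjusted p = 0.271), with most of the difference in batch 1 (0.54 in batch 1 and 0.12 in batch 2). Ror1, a tyrosine kinase receptor for Wnt5a, was at 1.10 ± 0.399 and 1.91 ± 0.800 CPM on low and high salt (log2 fold change -0.77 ± 0.26, adjusted p = 0.360). Of 8 tested ligands and 6 tested genes of the R-spondin module none passed, and the 4 nuclear factors had estimates from -0.21 to -0.07. The 49 genes gave 24 positive and 25 negative estimates with a median of -0.01, 7 had an unadjusted p under 0.05 (against 10.6% of all genes), and 5 (10.2%) had groups that did not overlap, against 4.72% of all genes tested.

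The response to low salt was then compared between the tissues in 1 model over 16 libraries. The response differed for 3 of 56 tested genes of the pathway (5.36%), against 161 of 19408 genes in all (0.83%): Fzd1, Frat1 and Lrp5. For Fzd1 the log2 response was 0.30 in the kidney and -0.79 in the heart, each from its own table, a difference of 1.10 ± 0.13 in the joint model (adjusted p = 0.0103). For Frat1 the responses were -0.67 and 0.82, a difference of -1.48 ± 0.22 (adjusted p = 0.0160). Frat2 had estimates of the same signs, -0.43 in the kidney and 0.62 in the heart, with a difference that did not pass (-1.04 ± 0.36, adjusted p = 0.199). For Lrp5, where the heart levels of 89.1, 94.8, 109.6 and 104 CPM on high salt and 87.4, 93.6, 115 and 98.7 CPM on low salt overlapped, the difference was 0.54 ± 0.10 (adjusted p = 0.0337). Wif1 and Tcf7l1, both called in the kidney, did not pass for the difference (adjusted p = 0.0561 and 0.0582), so a response particular to the kidney is not shown for them.

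Fzd1 passed in all 16 fits that left out 1 rat and Frat1 in 15, the exception being heart high-salt replicate 2 (adjusted p = 0.0528). Lrp5 passed in 6 of the 16 and was lost without heart high-salt replicate 2 or 3, heart low-salt replicate 1, 2 or 4, kidney high-salt replicate 1, 2 or 3, or kidney low-salt replicate 1 or 4 (up to 0.0839). Without the batch term or with the replicate number as a block none of the 3 passed, the adjusted p being 0.0913 and 0.241 for Fzd1, 0.0508 and 0.137 for Frat1, and 0.117 and 0.188 for Lrp5.

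**Figure D2:**
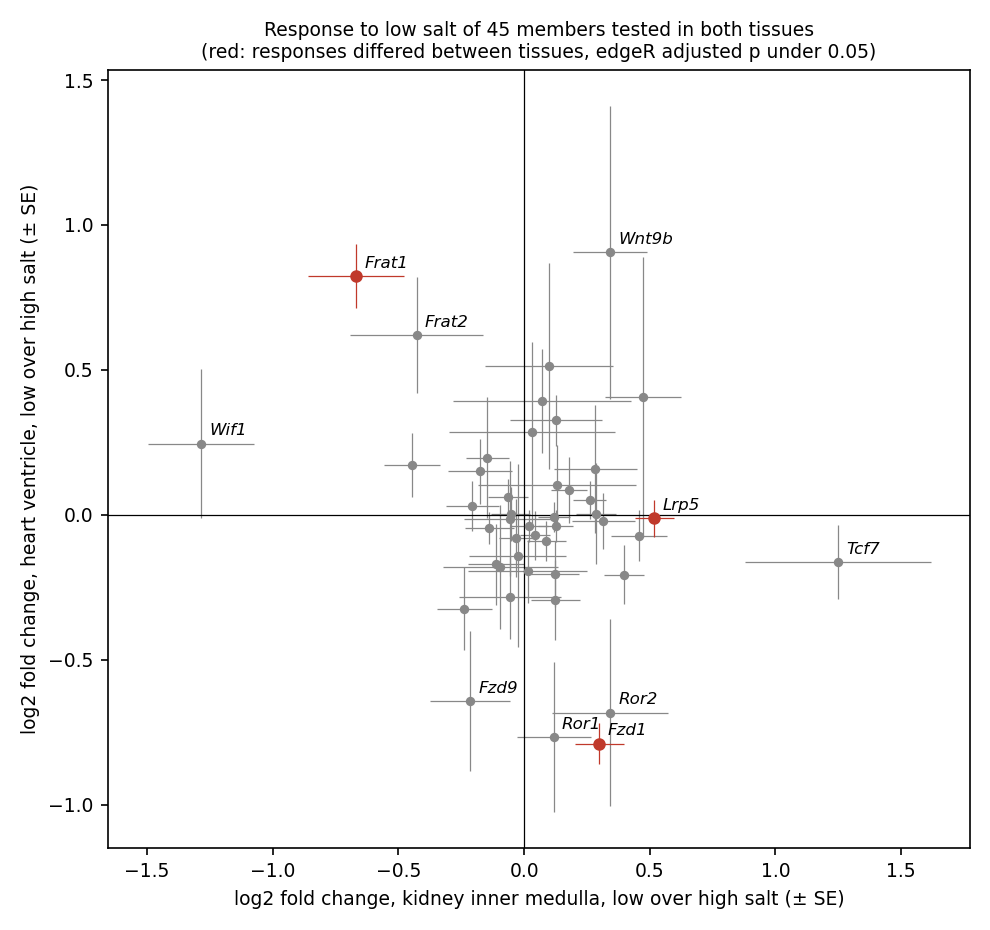
Log2 fold change of low over high salt in the kidney (horizontal) and in the heart (vertical) for the 45 genes of the pathway tested in both tables, with SE bars; red marks genes whose responses differed between the tissues. Frat1 lies at -0.67 and 0.82, Fzd1 at 0.30 and -0.79, and Lrp5 at 0.52 and -0.01.

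Aldosterone infusion on 0.4% Na gave no call in 52 tested genes of the pathway (0 of 52 by edgeR, 7 with an unadjusted p under 0.05, 1 by DESeq2), against 0% of 17671 genes in all by edgeR, 9.90% with an unadjusted p under 0.05 and 2.11% by DESeq2, so each count is near its background. Of the 52 estimates 25 were positive and 27 negative, with a median of -0.03. The smallest p belonged to the ligand Wnt10a, at 0.692, 0.693, 0.268 and 0.415 CPM in controls and 3.01, 3.62, 3.55 and 0.519 CPM with aldosterone. Replicates 1 to 3 of the aldosterone group lay above every control, and replicate 4 lay within the control range. The log2 fold change was 2.40 ± 0.53 (edgeR adjusted p = 0.219; 0.00255 by DESeq2, the only call that tool made among the 52). The estimate rested on 58 counts over the controls and 306 over the treated kidneys, and it ran from 1.74 to 2.70 when 1 rat was left out.

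Lef1, Rnf43 and Fzd8 were the 3 genes of 52 whose aldosterone and control groups did not overlap (5.77%, against 5.09% of all genes tested, a share near the background). Lef1, a nuclear partner of beta-catenin, stood at 0.838, 1.00, 1.14 and 0.641 CPM in controls and 1.52, 1.44, 1.87 and 1.40 CPM with aldosterone (log2 fold change 0.78 ± 0.26, adjusted p = 0.377). Rnf43, a ubiquitin ligase that removes Frizzled receptors from the surface, was at 114, 113, 112 and 110.2 and 104, 90.6, 91.5 and 105 CPM (-0.20 ± 0.07, adjusted p = 0.405). Fzd8 was at 29.7 ± 1.97 and 25.6 ± 1.59 CPM (-0.22 ± 0.09, adjusted p = 0.461). The ligand Wnt9b was at 514 ± 96.6 and 380.2 ± 53.7 CPM (-0.43 ± 0.15, adjusted p = 0.407). None of these differences passed.

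Fzd1 and Frat1 showed no difference beyond the spread with aldosterone. Fzd1 was at 182, 129.6, 174 and 153 CPM in controls and 139.8, 121, 209 and 156 CPM with aldosterone (-0.05 ± 0.15, adjusted p = 0.933), and Frat1 at 4.76 ± 1.82 and 4.76 ± 0.859 CPM (0.05 ± 0.24, adjusted p = 0.960). The Fzd1 estimate turned positive without aldosterone replicate 2 (0.036) or control replicate 1 (0.10), and the Frat1 estimate negative without aldosterone replicate 3 (-0.071) or control replicate 1, 3 or 4 (-0.016, -0.034 and -0.019). Dkk2, Dkk3 and Sfrp1, grouped here as secreted inhibitors and named outside the rule, had most of their difference in batch 2. Sfrp1, for example, was at 78.5, 36.6, 8.57 and 14.0 CPM in controls and 67.9, 52.5, 61.9 and 22.3 CPM with aldosterone, with log2 differences of 0.16 in batch 1 and 1.76 in batch 2 (adjusted p = 0.577). Fibroblast markers in the same kidneys ranged from 75.2 to 248 CPM in controls and from 82.8 to 295 CPM with aldosterone, and thick ascending limb markers from 671 to 1871 and from 1600 to 3339 CPM. Their part in these values was not tested.

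The aldosterone response was set against the low-salt response of the kidney in 1 model. None of 53 tested genes of the pathway differed (0 of 53 by edgeR, 11 with an unadjusted p under 0.05, 5 by DESeq2), against 0.0528% of all 18938 genes by edgeR (10 genes), 13.1% with an unadjusted p under 0.05 and 3.47% by DESeq2. The 11 and the 5 of 53 were larger shares than those of all genes, a difference that was not tested. The smallest p were those of Rnf43, with estimates of -0.20 for aldosterone and 0.29 for low salt (difference -0.51 ± 0.11, adjusted p = 0.0832), of Wif1 with -0.02 and -1.29 (difference 1.25 ± 0.31, adjusted p = 0.102) and of Tcf7l1 with -0.06 and 0.40 (difference -0.48 ± 0.13, adjusted p = 0.125). For Fzd1 and Frat1 the differences were -0.37 ± 0.19 (adjusted p = 0.435) and 0.70 ± 0.31 (adjusted p = 0.354). Without kidney high-salt replicate 4 the difference for Rnf43 passed (-0.58, adjusted p = 0.0392). The experiments also differ in their Xist and Y-linked pattern, which cannot be told apart from the difference between treatments here.

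**Figure D3:**
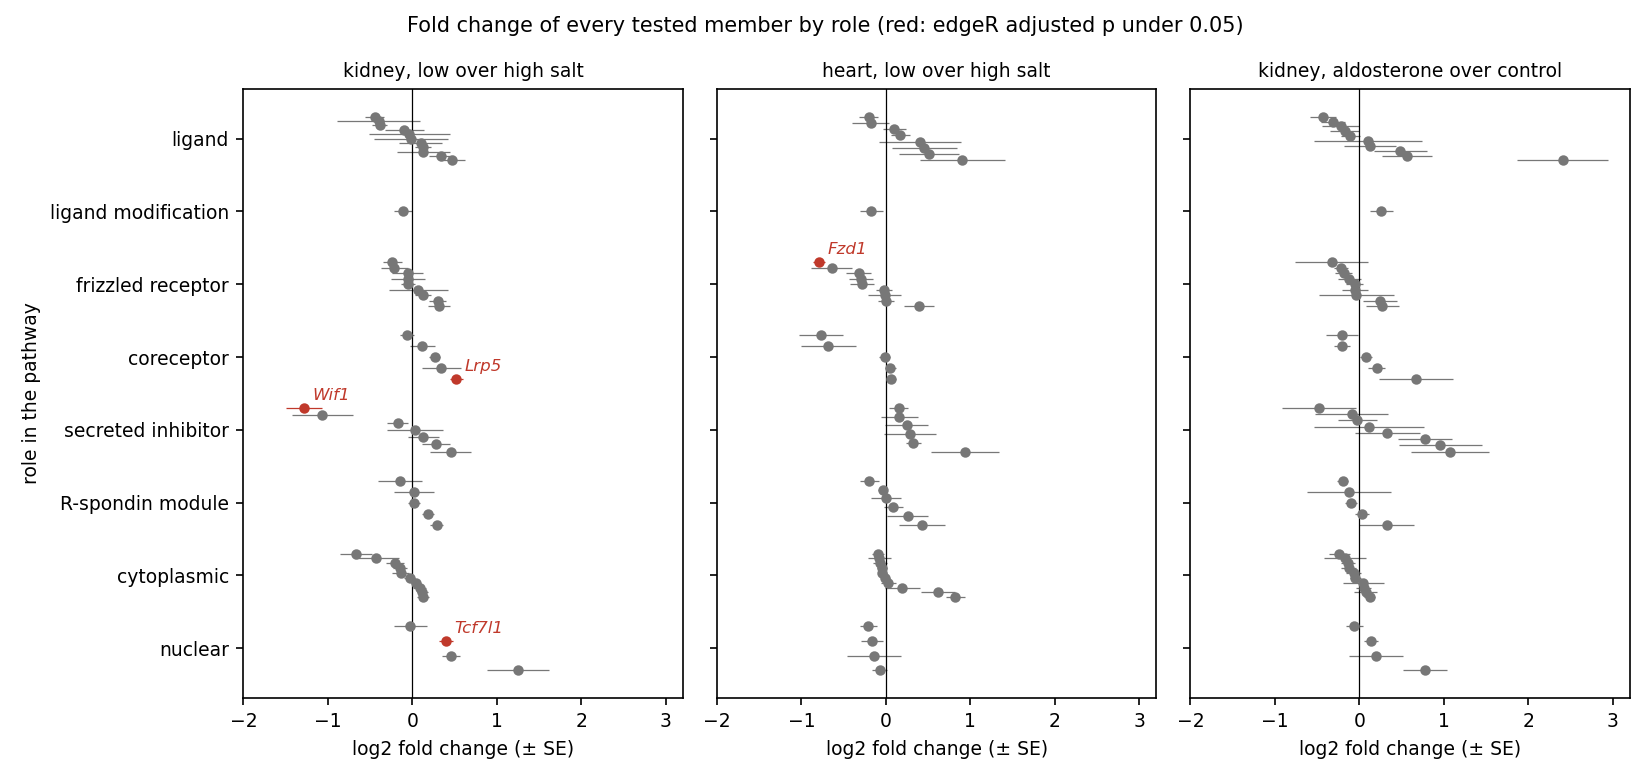
Log2 fold change with SE (horizontal axis) of every tested gene, grouped by role on the vertical axis, for low salt in kidney (52 genes), low salt in heart (49 genes) and aldosterone in kidney (52 genes); red marks an adjusted p under 0.05. Most genes lie near 0, with Lrp5, Wif1 and Tcf7l1 called in the kidney, Fzd1 in the heart and none with aldosterone.

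The widest fold changes between inner medulla and ventricle on high salt were those of Wnt ligands, secreted inhibitors and the R-spondin module. Of 56 tested genes, 27 were higher in the kidney and 19 higher in the heart (82.1%), close to the 79.9% of all 19408 genes that differed, so the number says nothing particular about the pathway; 36 (64.3%) had groups that did not overlap, against 71.7% of all genes. Levels in this comparison come from a joint scaling of both tables, and tissue and table cannot be told apart. The median log2 fold change of kidney over heart was 0.28, against 0.16 over all genes. Upper quartile scaling moved the median of all genes to 0.33 and gave 28 higher and 14 lower genes of the pathway, with 81.1% of all genes called.

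Among the ligands, Wnt7b was far higher in the kidney, at 314, 311, 454 and 407 CPM, against 0.254, 1.10, 0.138 and 0.245 CPM in the heart. The log2 fold change was 9.76 ± 0.29 (adjusted p = 6.98e-13), and 10.81 without heart high-salt replicate 2, the library with the highest heart value. That library also held the most principal cell and thick ascending limb marker RNA of the hearts, whose part in the value was not tested. Wnt9b and Wnt4, named here outside the rule, stood at 412 and 98.2 CPM in the kidney and 1.01 and 0.668 CPM in the heart. Wnt2b lay the other way, at 0.558, 1.32, 1.15 and 1.37 CPM in the heart and 0.232, 0.152, 0 and 0.0217 CPM in the kidney (-3.61 ± 0.72, adjusted p = 3.83e-04), as did Wnt11 at 13.8 and 2.01 CPM. For Wnt10a and Wnt7a, with 1 and 2 counts over the 4 hearts, the kidney over heart ratios were 72.8 (95% counting interval 12.9 to 2894) and 12.2 (3.23 to 103). Counting intervals, here and below, use counts summed over the rats of a group and leave out the spread between rats. Porcn, the enzyme that attaches the lipid to Wnt proteins, was higher in the kidney, 13.4 ± 1.67 against 5.98 ± 0.321 CPM (1.17 ± 0.12, adjusted p = 6.49e-07).

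The Frizzled receptors were divided, with 4 of 9 tested higher in the kidney and 4 higher in the heart. Fzd3 was higher in the kidney, at 7.08 ± 1.38 CPM against 1.74 ± 0.249 CPM (2.03 ± 0.18, adjusted p = 1.10e-07), and Fzd5 higher in the heart, at 38.3 ± 11.6 against 8.49 ± 1.16 CPM (-2.14 ± 0.13, adjusted p = 1.97e-09). Fzd1 was higher in the heart on high salt, at 150.4, 149, 230.3 and 194 CPM against 125, 136, 89.3 and 101 CPM in the kidney, without overlap (-0.68 ± 0.09, adjusted p = 8.67e-06). The labels do not say whether batch 1 of kidney is batch 1 of heart. Matched by batch number alone, the log2 differences were -0.21 for number 1 and -1.15 for number 2. The 5 coreceptors had log2 fold changes between -0.21 and 0.63. Ror2 was higher in the kidney (0.63 ± 0.27, adjusted p = 0.0474) and Ryk in the heart (-0.21 ± 0.07, adjusted p = 0.0177). Both calls were weak: Ror2 passed in 5 of 16 fits that left out 1 rat (adjusted p up to 0.151), and not with the replicate number as a block (0.0727), without the batch term (0.0657) or without a filter on low counts (0.0571), and Ryk was lost without heart high-salt replicate 4 or kidney high-salt replicate 3 or 4 (up to 0.0614), under upper quartile scaling (0.669) and without the filter (0.0555).

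Genes grouped here as secreted inhibitors lay at both ends, and whether Dkk3 inhibits Wnt signals was not tested. Dkk3 was higher in the heart, at 193, 212, 332 and 317 CPM against 3.25, 2.43, 3.49 and 3.60 CPM in the kidney (-6.33 ± 0.15, adjusted p = 7.84e-14), whereas Dkk1, which blocks LRP5 and LRP6, gave 452 counts over the kidneys and 1 over the hearts, a ratio of 194 (95% counting interval 34.6 to 7667). Its fitted log2 fold change of 7.55 became 9.33 without heart high-salt replicate 1, the library that holds this count. Wif1 did not differ beyond the spread, at 3.15 ± 0.563 and 3.01 ± 0.702 CPM (adjusted p = 0.809). In the R-spondin module Rnf43 was higher in the kidney, at 80.1 ± 17.2 against 12.8 ± 3.75 CPM (2.64 ± 0.15, adjusted p = 6.73e-10), and Rspo4 higher in the heart, at 2.39, 2.94, 1.43 and 2.01 against 0.0775, 0.0570, 0.0211 and 0.0217 CPM (-5.57 ± 0.42, adjusted p = 2.18e-08). Outside the rule, Rspo1 and the receptor Lgr6 were likewise higher in the heart, at 6.88 and 104 CPM against 0.154 and 2.56 CPM, while Rspo3, with 116 counts over the kidneys and 1 over the hearts, had a ratio of 49.7 (8.75 to 1980).

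Among intracellular genes, Axin2 was higher in the kidney, at 19.5 ± 3.51 against 3.61 ± 0.751 CPM (2.42 ± 0.15, adjusted p = 2.40e-09), and Gsk3b, a kinase that marks beta-catenin, higher in the heart, at 150.2 ± 17.6 against 83.1 ± 6.80 CPM (-0.85 ± 0.08, adjusted p = 1.28e-07). Frat1 was higher in the heart on high salt, 6.49 ± 1.38 against 4.63 ± 1.02 CPM (-0.47 ± 0.15, adjusted p = 0.0124), though not under upper quartile scaling (-0.29, adjusted p = 0.0936). Matched by batch number, which the labels do not tie between the tissues, its log2 differences were -0.85 for number 1 and -0.12 for number 2. Tcf7l2 was higher in the kidney (0.47 ± 0.10, adjusted p = 8.38e-04) and Tcf7l1 in the heart (-0.30 ± 0.10, adjusted p = 0.0123). The Tcf7l1 call was lost without heart high-salt replicate 2 (0.0622), without the batch term (0.0780), with the replicate number as a block (0.151) and under upper quartile scaling (0.229).

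**Figure D4:**
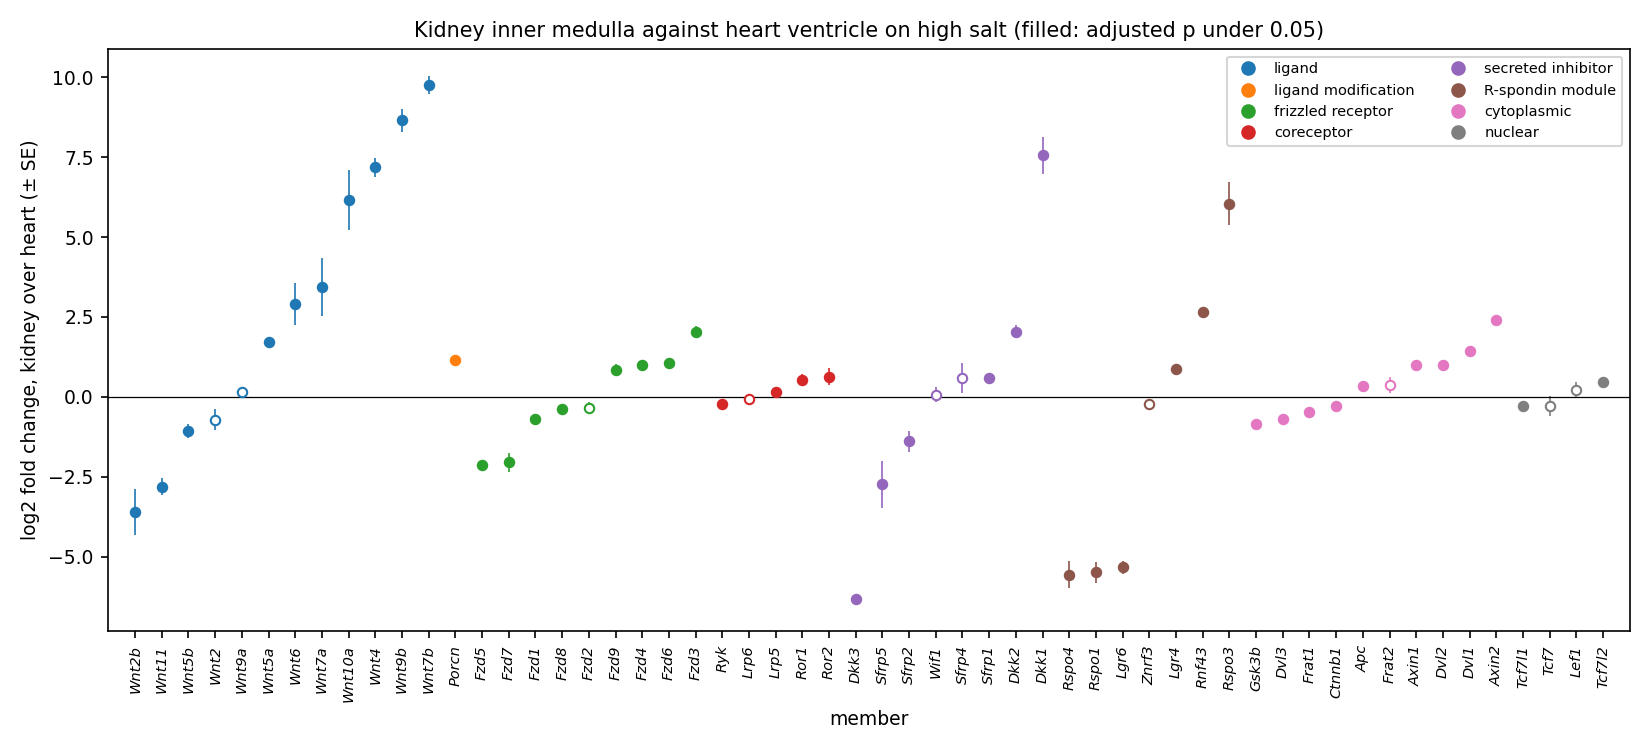
Log2 fold change of kidney inner medulla over heart ventricle on high salt, with SE (vertical axis), for the 56 tested genes, coloured by role and ordered within each role; filled points have an adjusted p under 0.05. The ligands run from -3.61 for Wnt2b to 9.76 for Wnt7b. The genes grouped as secreted inhibitors run from -6.33 for Dkk3 to 7.55 for Dkk1 (9.33 without heart high-salt replicate 1, which holds its only heart count). Coreceptors, cytoplasmic and nuclear genes lie closer to 0.

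A wider list of 69 pathway genes was fitted beside these: 11 targets and feedback genes, 14 other secreted modulators, 29 cytoplasmic and nuclear proteins and 15 planar polarity genes. Of these, 66 were tested in each kidney treatment comparison and 60 in the heart, and none passed in a treatment comparison or in a difference between responses. Over all genes 2.46% passed for low salt in the kidney, 0.0517% for low salt in the heart and 0% for aldosterone. For the differences between responses 0.83% passed between tissues and 0.0528% between treatments, so counts of 0 say nothing particular about these genes. The median log2 fold changes of the wider list were 0.03 for low salt in the kidney, -0.04 for low salt in the heart and 0.07 for aldosterone. Between the tissues 37 were higher in the kidney and 18 higher in the heart, of 66 tested, and of the 11 target and feedback genes 8 were higher in the kidney and 1 in the heart. These shares, 83.3% of the 66 and 81.8% of the 11, are near the 79.9% of all genes that differed.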

How the data were processed

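RNA sequencing counts of 24 rat libraries, 4 per group, were analysed. Per the labels' protocols, messenger RNA libraries were made with a stranded TruSeq kit and sequenced from 1 end. Salmon, Trimmomatic, MultiQC and bcl2fastq 2.19 are the tools named, per the submitters' processing notes, with settings, annotation and genome build not given in the sources used here. Gene-level expected counts (estimated read counts, not always whole) are what the authors deposited, in 3 tables, 1 each for kidney and heart in the low-salt experiment and 1 for the aldosterone experiment. Reads shared by near-identical genes are divided by estimation, which makes single members of such families uncertain.

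These estimates were rounded, and edgeR 4.0.16 (R 4.3.3) was run separately on each table: filterByExpr with a minimum count of 10, TMM scaling, and the quasi-likelihood F test with a batch term. The Benjamini-Hochberg adjustment ran over every gene tested in the table, and a call is an adjusted p under 0.05. Kidney against heart, and differences between responses, were fitted on 16 joined libraries with table and batch combined as intercepts. Within-batch log2 differences are between group means of log2(CPM + 0.01). The fits were also run on simulated counts with the same spread for every gene, no batch difference and changes only in well-counted genes. That run does not show how the fits perform on these data. The members, lists and rules were chosen with earlier results of these data known. The rule names Fzd1, Frat1, every called gene, the 5 smallest p per treatment and 3 per difference of responses, and for the tissues the largest called fold of each role and direction with at least 1 CPM.

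Alternatives were DESeq2 1.42.0 as test and as scaling, upper quartile scaling, no filter or a minimum of 1 CPM in 4 libraries, a fit that ignores batch, a replicate block, the high-salt libraries alone for the tissues, and leaving out each rat. To see whether replicate numbers pair samples, deviations of log2 CPM (pseudocount 0.5) from group means, which keep the batch difference, were correlated between same-numbered libraries. All 4 correlations were over 0.1 for heart low against high salt (0.185 to 0.258) and for kidney against heart on high salt (0.243 to 0.327). Elsewhere they reached from -0.047 to 0.398. Same-numbered libraries also share a batch number, so these correlations cannot show that the numbers pair rats. The replicate block is given only as an alternative. Libraries of a group differed by more than sampling noise in all 36 pairs (chi-square per gene at least 20.3). The labels give separate rats but not separate cages or days, so p-values measure the spread between these rats.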

Additional observations from a re-analysis of the deposited data

Results flagged for a closer look

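The low-salt response of 3 genes differed between kidney and heart in the joint model: Fzd1 by 1.10, Frat1 by -1.48 and Lrp5 by 0.54 on the log2 scale (kidney minus heart). In 3 of 71 groups of 4 libraries examined, 1 library lay far from the other 3, about as many as chance gives at 1 in 20 groups. Frat2 was at 3.10 CPM in heart high-salt replicate 4 against 5.55 to 5.93 CPM in the other high-salt hearts. Wnt7b was at 0.798 CPM in heart high-salt replicate 2 against 0.0996 to 0.185 CPM in the others, on the scale of the heart table alone. That library held the most principal cell and thick ascending limb marker RNA of the hearts. Dkk1 was at 0.0371 CPM, a single count, in heart high-salt replicate 1 and at 0 in the other high-salt hearts.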

How the results depend on the processing

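DESeq2 called 11 of 52 pathway genes for low salt in the kidney (3 by edgeR), 1 of 52 for aldosterone (0) and 3 of 49 for low salt in the heart (1). It called 9 of 56 for the difference of the low-salt responses between tissues (3) and 5 of 53 for the difference between aldosterone and low salt (0). Over all genes it called 9.19%, 2.11%, 1.96%, 4.23% and 3.47% in these comparisons. Without a filter on low counts the heart count was 2 (0.326% of all genes). With a filter of 1 CPM in 4 libraries the count for the difference between tissues was 5 (1.24% of all genes). Without the batch term the counts for the heart and for the difference between tissues were 0 and 0 (0.00646% and 0.0721% of all genes). With the replicate block they were 0 and 0 as well (0% and 0% of all genes), and the kidney count was 0 (0.282%). Within the kidney, aldosterone and heart tables the numbers were not shown to pair the rats, since only 1 of 4 matched its own best in each. Kidney against heart matched in 4 of 4 on high salt and in 2 of 4 on low salt. Leaving out 1 rat gave 0 to 5 calls in the kidney, 0 to 1 in the heart, 1 to 6 for the difference between tissues and 0 to 1 for that between treatments. Over all genes these fits called 0.0106 to 2.26%, 0.00634 to 0.0507%, 0.0555 to 0.988% and 0 to 0.349%. The kidney count was 0 without high-salt replicate 1, 2 or 3 or low-salt replicate 3 or 4, and 5 without high-salt replicate 4. For the tissues, 42 to 47 genes were called under every alternative run, against 46. Over all genes these fits called 57.4 to 84%, against 79.9%. For aldosterone the Frat1 estimate of 0.05 became -0.000118 without the batch term and ran from -0.071 to 0.26 when 1 rat was left out, and the Fzd1 estimate of -0.05 ran from -0.18 to 0.10. Over 44 named results, 786 alternative fits kept direction and call status, genes called in neither fit included, 71 lost the call and 12 gained one. Another 7 turned sign, all 7 in these aldosterone estimates of Fzd1 and Frat1. Of 15 alternatives each, the kidney calls held in 9 for Lrp5, 8 for Wif1 and 5 for Tcf7l1, and the heart call of Fzd1 in 8. Of 23 each, the differences between tissues held in 21 for Fzd1, 20 for Frat1 and 11 for Lrp5. Wnt10a could not be fitted with the 1 CPM filter, which removes it. The causes were not tested. Depth limits the low genes: 11 of 67 were in no treatment comparison, and ratios against 1 count in the hearts carry wide intervals, as printed for Dkk1.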
